A study of Mus musculus with 14 samples.

Results

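Skin of mice that carried the keratinocyte Cre transgene and floxed Nedd8 was compared with wild-type skin, both treated with DMSO and neither with imiquimod. The comparison was defined by genotype and treatment labels and takes 5 of the 14 libraries of the series, and it is described here across all genes. The knockout group (3 libraries) has the genotype NEDD8fl/fl, K14-CreERT pos, in which the keratin 14 promoter drives a tamoxifen-inducible Cre recombinase in basal keratinocytes. By this design keratinocytes lose Nedd8 and dermal, immune and endothelial cells keep it, which was not checked here in any cell type. The wild-type group (2 libraries) is C57BL/6J. Another group with DMSO, NEDD8fl/fl, K14-CreERT neg (3 libraries, Cre-negative here), carries the floxed allele without Cre and is set beside the result where it helps. Knockout mice were induced on 5 consecutive days before the experiment. The labels give no induction for wild-type mice and no strain background for the floxed mice, so genotype, induction and background cannot be told apart here. The treatment text covers shaved backs and right ears, and the site of each library is not labelled. The same text gives cream with 5% imiquimod from day 0 to day 7. The series design text instead speaks of a NEDD8 inhibitor or DMSO for 3 days in wild-type mice. The labels were followed, and the days of DMSO treatment are not certain. Nothing says that the libraries came from separate animals, so a p-value measures only the spread between these samples.

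NEDD8 is a small ubiquitin-like protein. It is activated by the NAE1-UBA3 enzyme, passed to UBE2M or UBE2F and attached to cullins, which switches on the cullin-RING ubiquitin ligases. These ligases mark many short-lived proteins for the proteasome, among them the antioxidant factor NRF2 (through CUL3 and KEAP1), the NF-kB inhibitor IkB, cyclin E and inhibitors of the cell cycle. The epidermis renews itself from basal keratinocytes, which express KRT5 and KRT14 and move outwards while they switch to KRT1, KRT10 and the proteins of the cornified envelope.

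Total counts were 5552954, 9814586 and 34362477 in knockout replicates 1, 2 and 3 and 8294616 and 14748319 in wild-type replicates 1 and 2, so knockout replicate 1 was the shallowest. It also had the largest share of 18S ribosomal RNA among the 5 libraries, 17.5% of counts against 3.84% to 8.89% in the others. On the first principal component, with 65.6% of the variance, the knockout libraries lay between 60.3 and 105.4 and the wild-type libraries at -108.5 and -118.4. The second component, with 19.3%, set knockout replicate 1 at 83.9 apart from knockout replicates 2 and 3 at -57.3 and -48.5. By Xist and 4 Y-linked genes all 5 libraries were female, while Cre-negative replicates 1 and 2 were male and replicate 3 female.

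The 2 wild-type libraries differed from each other in genes of growing hair. The summed level of the 28 tested genes of the hair shaft and inner root sheath was 1764 CPM (counts per 1000000 counts, TMM-scaled) in wild-type replicate 1 and 10489 CPM in wild-type replicate 2, against 1195 to 1532 CPM in Cre-negative and 358.4 to 549.9 CPM in knockout libraries. Wild-type replicate 2 was also the higher of the pair in the averaged log2(CPM + 1) of melanocyte genes, 4.61 against 2.55, and of cell cycle genes, 4.20 against 3.21. Results on hair, pigment and proliferation are therefore given with and without this library.

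**Figure D1:**
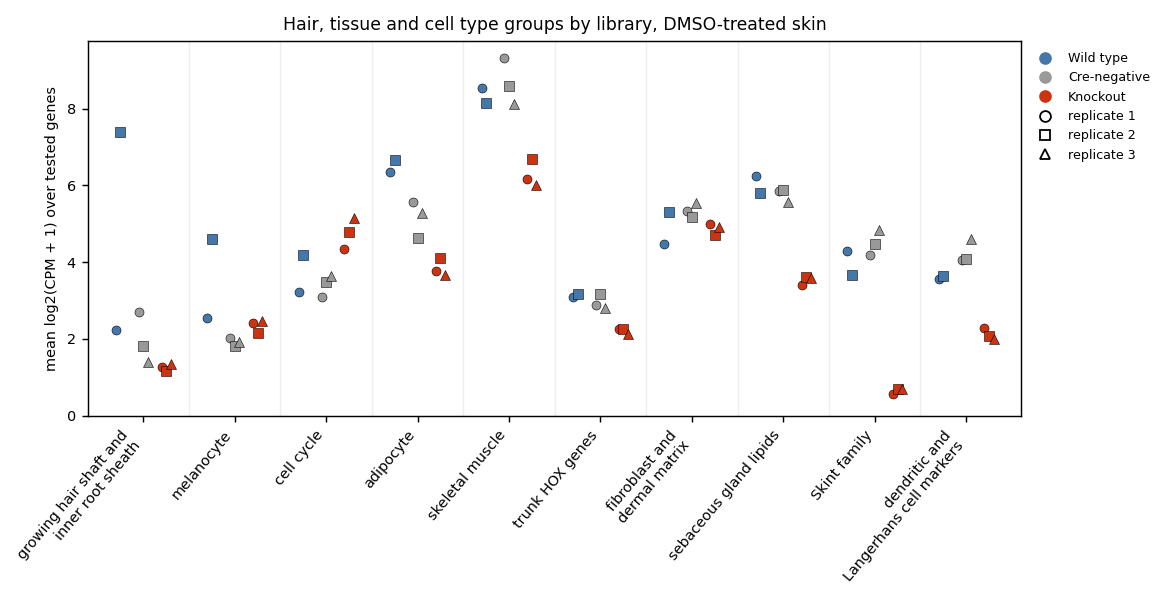
Mean log2(CPM + 1) over the tested genes of 10 gene groups (horizontal axis) in each DMSO library, with colour for genotype and marker shape for replicate number. Wild-type replicate 2 stands at 7.40 in the growing-hair group and wild-type replicate 1 at 2.24, while the knockout libraries lie below all wild-type and Cre-negative libraries in the adipocyte, muscle, sebaceous, Skint, HOX and dendritic cell groups.

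Nedd8 tag counts did not separate the genotypes. Nedd8 (ENSMUSG00000010376.16, minus strand of chr14:55899720-55909581, GRCm39) was at 375, 158 and 147 CPM in the knockout libraries and at 203 and 270 CPM in the wild-type libraries. The ranges overlap, and the highest value of the 5 belongs to knockout replicate 1. The log2 fold change was -0.07 ± 0.45 (SE derived from the test's F statistic), with adjusted p = 0.93 by edgeR's quasi-likelihood test. An exact two-sided permutation test gave p = 1, where 10 splits allow no p below 0.1. The fold change turned positive without wild-type replicate 2 (0.14), without knockout replicate 2 (0.14) and without knockout replicate 3 (0.17). Reads of this kit lie near the 3′ end of a transcript and may fall outside the deleted part. Cells without Cre may also contribute Nedd8 RNA. Neither point was tested, so these counts check neither the deletion nor the labels.

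Across the genome, 4107 of 16027 tested genes passed the threshold of adjusted p under 0.05 (25.6%), of which 1805 rose in knockout skin (11.3%) and 2302 fell (14.4%). The median absolute log2 fold change of these genes was 2.02, and 283 rose and 397 fell by more than 16-fold. The median over all tested genes was -0.06. The count dropped to 2054 without wild-type replicate 1 and to 2093 without wild-type replicate 2, where 1 library stands for the group. Cre-negative against wild-type skin gave 0 calls by the same test, with 1120 genes at unadjusted p under 0.05, while DESeq2 called 144 and limma voom 195. In bulk skin, fewer cells of a type and less RNA per cell cannot be told apart, which holds for every cell type below. Counts of genes in each group below stand beside the 11.3% of all tested genes that rose and the 14.4% that fell. The knockout libraries lay wholly above the wild-type libraries in 24.2% of all tested genes and wholly below in 29.6%. Each statement below that libraries do not overlap stands beside these shares.

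**Figure D2:**
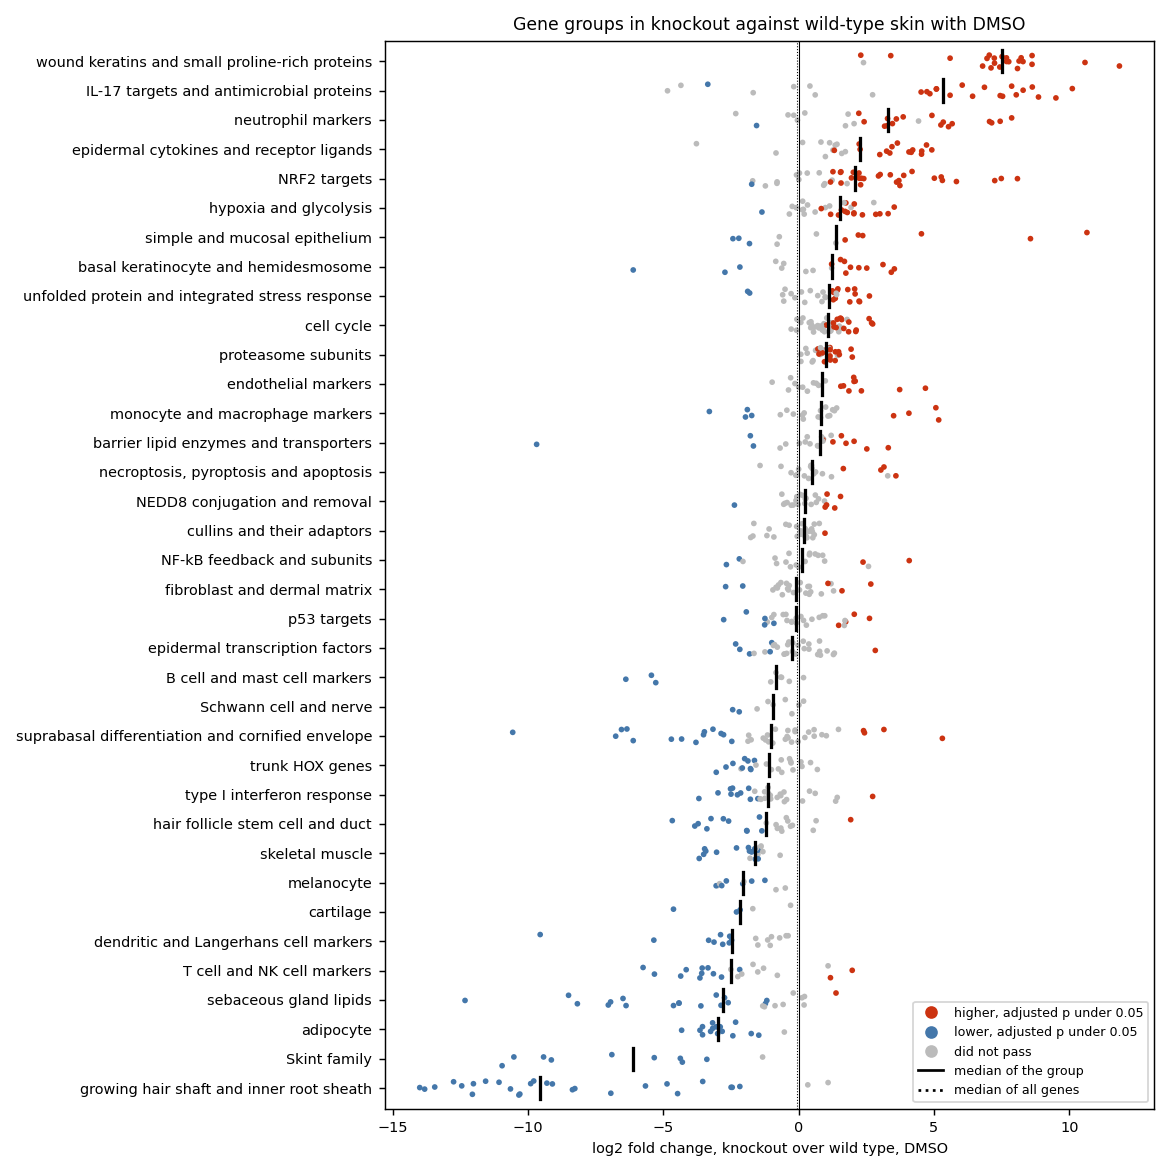
Log2 fold change of knockout over wild-type skin (horizontal axis) for each tested gene of the gene groups, ordered by the group median (black bar). Red and blue points passed the threshold, grey points did not, and the dotted line is the median of all genes at -0.06; the wound keratin group has the highest median, 7.52, and the growing-hair group, which rests on wild-type replicate 2, the lowest, -9.54.

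Of the 25 genes for NEDD8 conjugation and removal, 5 rose, 1 fell and 19 did not pass, with a median log2 fold change of 0.23. Dcun1d3 and Dcun1d5, scaffold proteins that help load NEDD8 onto cullins, rose by 1.55 ± 0.31 and 1.34 ± 0.32. The conjugating enzymes Ube2m (0.98 ± 0.29) and Ube2f (1.03 ± 0.34) and the activating subunit Uba3 (1.05 ± 0.35) rose by about as much. Uba3 was at 37.7, 23.8 and 17.0 CPM in knockout and 13.7 and 11.3 CPM in wild-type libraries, which do not overlap. The calls of Uba3 (adjusted p = 0.041), Ube2f (0.038) and Ube2m (0.024) were closer to the threshold than those of Dcun1d3 (0.0031) and Dcun1d5 (0.0084). Without wild-type replicate 1 the adjusted p was 0.12 for Uba3, 0.20 for Ube2m, 0.16 for Ube2f and 0.084 for Dcun1d5, and only 1 gene of the group then rose, as also happened without wild-type replicate 2, while 3 rose without knockout replicate 1 or 3. With libraries scaled by total count alone, 0 genes of the group rose and 2 fell.

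The partner subunit Nae1 (0.23 ± 0.30, adjusted p = 0.61), the cullin exchange factor Cand1 (0.46 ± 0.27, 0.22) and Cops5, the catalytic subunit of the COP9 signalosome that removes NEDD8 (0.96 ± 0.34, 0.051), did not pass. Cops5 did pass with DESeq2 (adjusted p = 0.029), limma voom (0.035), a model of the 8 DMSO libraries (0.032), without the 18S gene (0.042) and without knockout replicate 2 (0.042). The gene that fell was Cand2, a relative of Cand1 known from muscle, at 1.27, 2.43 and 2.71 CPM in knockout against 13.4 and 9.95 CPM in wild-type libraries (-2.37 ± 0.36). Muscle genes were lower in the same libraries, as given below, and their part in this difference was not tested. Of 28 cullins and adaptors 1 rose (Cul4b, 0.97 ± 0.32) and 0 fell, and Rbx1, the RING subunit, was at 75.7 to 85.1 CPM in knockout and 72.8 and 83.9 CPM in wild-type skin. The Cul4b call was lost without wild-type replicate 1 (adjusted p = 0.075), without wild-type replicate 2 (0.27), and without knockout replicate 2 or 3. With total-count scaling 0 of the 28 rose and 4 fell, with a median of -0.25.

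Targets of NRF2, the factor that drives antioxidant and detoxifying enzymes, rose as a group. Of 42 tested members 28 rose, 1 fell (Gstm5) and 13 did not pass, with a median log2 fold change of 2.09 against -0.06 for all genes. Their summed level was 16239, 21213 and 16952 CPM in the knockout libraries and 2419 and 2430 CPM in wild-type skin.

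Of the 4 target genes with the smallest p-values (Gsta4, Srxn1, Gpx2 and Akr1b8), the last 3 had a promoter in the reference used. Their promoters are shown, searched for the antioxidant response element, the known type of binding site of NRF2. The sequences are the 250 bases before the annotated start, 5′ to 3′ on the gene's strand, from RefSeq on GRCm38.p6. Capitals mark TGANNNNGC on either strand, a loosened form of the element's core that was chosen after the stricter TGACNNNGC had been searched.
Srxn1, plus strand, chr2:152105274-152105523: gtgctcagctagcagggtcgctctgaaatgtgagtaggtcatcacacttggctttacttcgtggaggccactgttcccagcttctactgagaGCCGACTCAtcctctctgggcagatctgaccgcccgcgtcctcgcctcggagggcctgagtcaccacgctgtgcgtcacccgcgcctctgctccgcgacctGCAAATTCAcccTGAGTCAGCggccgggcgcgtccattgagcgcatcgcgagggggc
Gpx2, minus strand, chr12:76795555-76795804: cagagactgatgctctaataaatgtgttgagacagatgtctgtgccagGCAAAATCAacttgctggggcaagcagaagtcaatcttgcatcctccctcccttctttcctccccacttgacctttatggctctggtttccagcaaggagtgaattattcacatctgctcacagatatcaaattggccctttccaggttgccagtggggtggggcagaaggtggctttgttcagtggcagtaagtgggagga
Akr1b8, plus strand, chr6:34353896-34354145: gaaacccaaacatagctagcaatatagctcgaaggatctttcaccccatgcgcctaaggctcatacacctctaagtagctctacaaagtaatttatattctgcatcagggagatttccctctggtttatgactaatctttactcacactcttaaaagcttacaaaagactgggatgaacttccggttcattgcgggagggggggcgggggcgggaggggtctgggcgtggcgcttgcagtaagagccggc
Srxn1 has 3 loosened matches before its start and Gpx2 has 1. Akr1b8 has none that lies wholly before its start. No marked stretch is a TGACNNNGC. With the 50 bases after the start included, Srxn1 has 1 TGACNNNGC, after its start, and Gpx2 and Akr1b8 have 0. In windows that also take in the 50 bases after the start, TGACNNNGC stood in 8 of 23 matched targets that rose (34.8%) and in 12 of 36 matched targets tested (33.3%). It stood in 17.8% of all matched genes that rose, in 16.7% of all matched genes tested and in 14% of all genes of the promoter table. TGANNNNGC stood in 73.9%, 63.9%, 49.3%, 47.6% and 45.0% of the same sets. Every TGACNNNGC is also a TGANNNNGC, so the pairs of shares are not independent. A match is a description of letters and shows no binding.

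Srxn1, which encodes sulfiredoxin and repairs oxidised peroxiredoxins, was at 2057, 2077 and 2130 CPM in knockout and 34.0 and 39.3 CPM in wild-type libraries. The knockout libraries were close to each other and far above the wild-type libraries, with a log2 fold change of 5.83 ± 0.42 (adjusted p = 3.9e-06). Gsta4, a glutathione transferase for lipid aldehydes, was at 1020, 928 and 850 CPM against 3.71 and 3.17 CPM (8.09 ± 0.55). Every knockout library exceeded every wild-type library by a wide margin in both genes, although reads of Gsta paralogs may be shared. Gpx2, a glutathione peroxidase of epithelia, was at 882, 534 and 370 CPM against 2.71 and 5.00 CPM (7.25 ± 0.65). Akr1b8, an aldo-keto reductase, rose by 5.02 ± 0.49, and the quinone reductase Nqo1 by 5.27 ± 0.61, from 2.01 and 3.17 CPM to 84.6, 121 and 99.1 CPM. Other members that rose were the glutathione synthesis genes Gclc and Gclm, the cystine transporter Slc7a11, and Prdx1, Txn1, Pgd and Tkt. With total-count scaling 22 of the 42 rose and 4 fell.

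**Figure D3:**
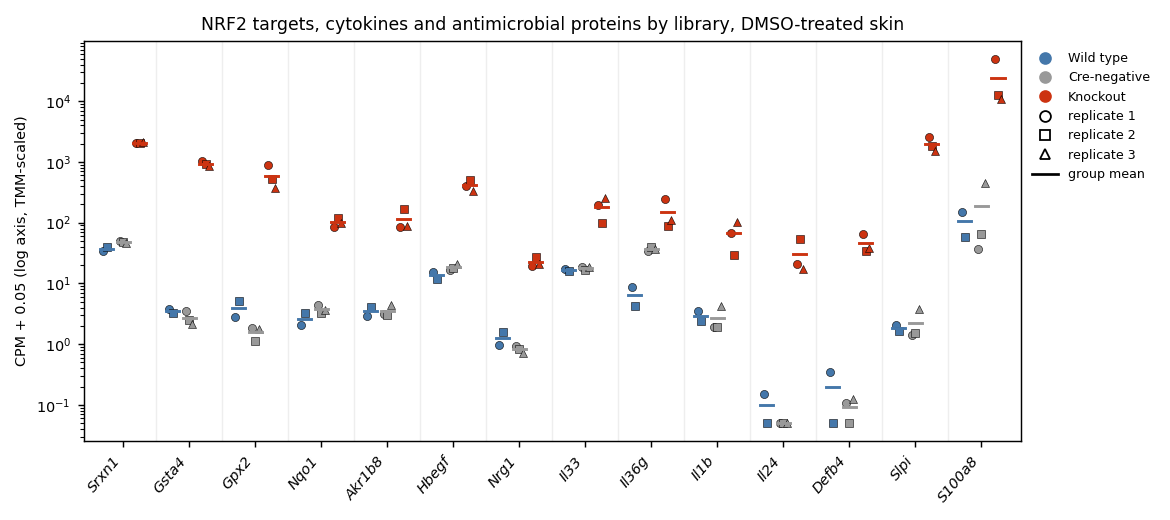
Level in CPM + 0.05 on a log axis of 5 NRF2 targets, 6 cytokines and receptor ligands and 3 secreted defence proteins (horizontal axis) in each DMSO library, with colour for genotype, marker shape for replicate and a bar for the group mean. All 3 knockout libraries lie above all wild-type libraries for each gene shown. For Il36g the Cre-negative libraries, at 34.4 to 39.3 CPM, stand between the knockout and wild-type libraries.

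Keratins of wounded and thickened epidermis and small proline-rich proteins, which cross-link into the envelope of stressed keratinocytes, rose in 22 of 23 tested genes, with a median log2 fold change of 7.52 (7.43 with genes at 0 in a group set to their bound). Krt6a was at 17110, 14507 and 19515 CPM in knockout and 93.9 and 153 CPM in wild-type libraries (7.11 ± 0.54, adjusted p = 3.9e-06). Its partner Krt16 was at 7040, 2366 and 3198 CPM against 17.0 and 9.95 CPM (8.29 ± 0.78). No wild-type library came near a knockout library in either gene. Krt6b rose by 8.62 ± 0.93 and Krt17, which was already at 329 and 312 CPM in wild-type skin, by 2.30 ± 0.38. Sprr1b rose by 7.68 ± 0.58, Sprr2h by 6.96 ± 0.54 and the late envelope gene Lce3c by 6.80 ± 0.61. Sprr2k, at 49.7, 22.2 and 21.4 CPM, had 0 counts in wild-type skin and was at least 313-fold higher in knockout skin. Reads of the near-identical Sprr2 and Lce3 copies may be split between them, so single values in these families are uncertain.

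The basal keratinocyte group, with 10 genes that rose and 3 that fell of 19, did not move as one. Krt14, the keratin whose promoter drives the Cre transgene, was at 17633, 12203 and 16801 CPM in knockout and 1639 and 1256 CPM in wild-type libraries (3.42 ± 0.45). Its partner Krt5 was at 862, 1815 and 2381 CPM against 832 and 615 CPM and did not pass (1.22 ± 0.49, adjusted p = 0.085). It did pass with DESeq2 (0.033), limma voom (0.013), no low-count filter (0.035) and without knockout replicate 1 (0.027). Krt15, a keratin of resting basal cells and the follicle bulge, went the other way, at 17.3, 29.8 and 31.0 CPM against 2228 and 1397 CPM (-6.11 ± 0.41, adjusted p = 3.3e-06). The knockout and wild-type libraries did not overlap in any of these 3 keratins, although for Krt5 the nearest libraries were at 862 and 832 CPM. Itgb1, the beta-1 integrin, rose by 2.23 ± 0.34. Without wild-type replicate 2 only 4 genes of the group rose, and 5 with total-count scaling.

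Of 42 genes of suprabasal differentiation and the cornified envelope 4 rose and 14 fell, with a median of -1.03. Krt10, the main suprabasal keratin, was at 49.2, 21.4 and 22.0 CPM in knockout and 2614 and 3094 CPM in wild-type libraries (-6.54 ± 0.90). Krt77, a suprabasal keratin of mature mouse epidermis, was at 3.57, 10.9 and 0.986 CPM against 8945 and 6468 CPM (-10.56 ± 0.95). Both keratins separated the groups by more than the spread within them. Lor, which encodes the envelope protein loricrin (-6.34 ± 0.88), Flg2 (-6.11 ± 0.67) and Lce1m (-6.76 ± 0.70) fell as well. Krt1, the partner of KRT10, was at 323, 151 and 319 CPM against 854 and 455 CPM and did not pass (-1.31 ± 0.61, adjusted p = 0.13), although it did with limma voom (0.049) and with no low-count filter (0.014). Ivl (0.58 ± 0.37, 0.28) and Flg (-1.15 ± 0.84, 0.34) did not pass either, and the Flg value turned to 0.69 without wild-type replicate 1, while it passed with no low-count filter (-1.13, adjusted p = 0.041). The group's median was -0.04 without that library, which held the higher level of Flg, 1496 against 254 CPM. The 4 members that rose were Cnfn, Rptn, Tgm3 and Dsg1b.

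**Figure D4:**
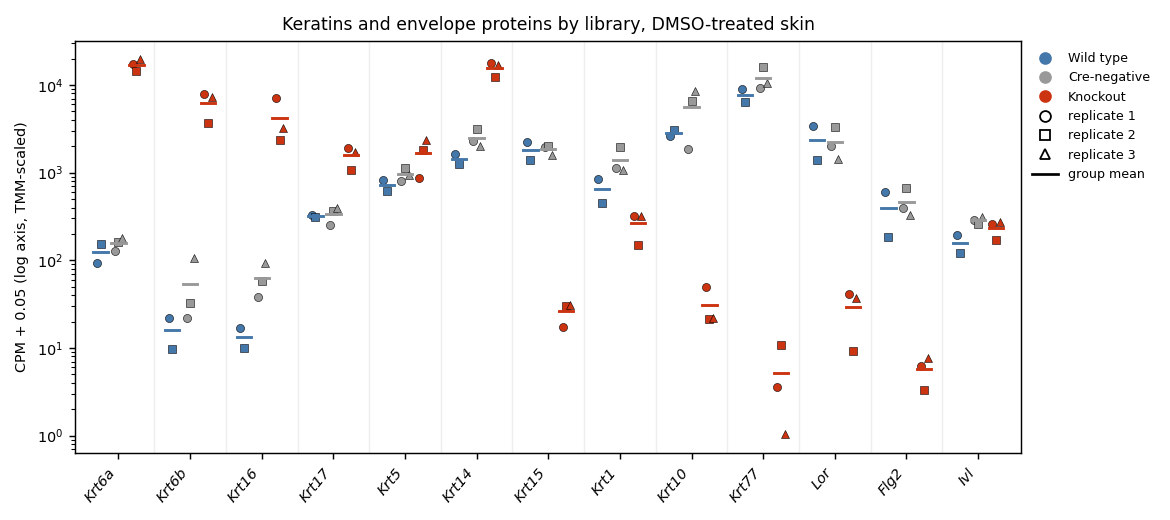
Level in CPM + 0.05 on a log axis of 10 keratins and 3 envelope genes (horizontal axis) in each DMSO library, with colour for genotype, marker shape for replicate and a bar for the group mean. Krt6a, Krt6b, Krt16 and Krt14 are higher and Krt15, Krt10, Krt77, Lor and Flg2 lower in all 3 knockout libraries than in all wild-type and Cre-negative libraries.

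Among 22 enzymes and transporters of barrier lipids 7 rose and 3 fell. Cers3, the synthase of very long chain ceramides, was at 319, 202 and 209 CPM in knockout and 44.3 and 40.5 CPM in wild-type libraries (2.52 ± 0.36), and the sphingolipid hydroxylase Degs2 rose by 3.31 ± 0.73. Fa2h, which 2-hydroxylates fatty acids of sphingolipids and is strongly expressed in sebaceous glands, was at 0.764, 0.0971 and 0.0282 CPM against 150 and 61.6 CPM (-9.68 ± 1.25). The groups did not overlap in any of these 3 genes. Only 2 of the 22 rose without wild-type replicate 2, and 1 fell without wild-type replicate 1, against 2 or 3 without each other library. With total-count scaling 3 rose and 4 fell.

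Of 26 IL-17 targets and antimicrobial proteins 18 rose and 1 fell (Pla2g2e), with a median of 5.35 (5.09 with bounds). Slpi, a secreted inhibitor of neutrophil elastase, was at 2589, 1833 and 1506 CPM in knockout and 2.01 and 1.58 CPM in wild-type libraries (10.11 ± 0.65, adjusted p = 2.8e-06). S100a8, a subunit of the antimicrobial calprotectin, was at 49785, 12884 and 11013 CPM against 151 and 59.1 CPM (7.87 ± 1.44), and knockout replicate 1 was the highest. The defensin Defb4 rose by 8.63 ± 0.83, the collagenase Mmp13 by 8.86 ± 1.01 and the cytokine Il24 by 9.51 ± 1.01. Defb4 had 3 counts over the wild-type libraries, and Mmp13 and Il24 had 1 each, so these fold changes and SE are uncertain. Il17a itself had 1 count over the 5 libraries, in knockout replicate 3, so its level was not measurable at this depth.

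Epidermal cytokines and receptor ligands rose in 15 of 26 tested genes and fell in 0, with a median of 2.26. Hbegf, a ligand of the EGF receptor, was at 400, 505 and 336 CPM in knockout and 15.3 and 12.0 CPM in wild-type libraries (4.92 ± 0.42). The ERBB ligands Nrg1 (4.16 ± 0.39) and Areg (3.25 ± 0.47) rose as well. The alarmin Il33 was at 193, 98.9 and 255 CPM against 17.3 and 16.1 CPM (3.45 ± 0.42). Il1b rose by 4.55 ± 0.58 and Il36g by 4.54 ± 0.51. Il23a, a subunit of IL-23, rose by 4.73 ± 0.78 from 0.10 and 0.0495 CPM to 2.55, 2.23 and 1.47 CPM. Tslp rose by 3.00 ± 0.64, a call that was lost without wild-type replicate 2 (2.85), where fewer genes of the group rose. It was at 1.79, 2.68 and 3.35 CPM in Cre-negative libraries. Against Cre-negative skin Tslp did not pass (1.33, adjusted p = 0.057 by the same test).

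Among 20 genes of NF-kB feedback 2 rose (Bcl3, 4.09 ± 0.42, and Tnfaip2, 2.38 ± 0.42) and 2 fell (Cd83 and Tnip3), with a median of 0.12. These counts are near the shares of all tested genes, of which 11.3% rose and 14.4% fell. None of the 20 fell without wild-type replicate 1, wild-type replicate 2 or knockout replicate 3, and 1 fell without knockout replicate 2, whereas total-count scaling gave 4 that fell and a median of -0.32. Type I interferon response genes fell in 10 of 32 and rose in 1, with a median of -1.12. Irf9, part of the factor that interferon activates, was at 15.5, 10.6 and 14 CPM in knockout and 37.1 and 38.6 CPM in wild-type libraries (-1.51 ± 0.34), and the chemokine Cxcl9 fell by 3.68 ± 0.72 on the log2 scale. Of the 32 tested genes, fewer fell without wild-type replicate 2, 6 fell without knockout replicate 3 and 15 fell with total-count scaling. Oasl1, the member that rose, changed by 2.74 ± 0.50.

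Neutrophil markers rose in 17 of 27 tested genes and fell in 1, with a median of 3.29, and their summed level was 64329, 19316 and 18089 CPM in knockout and 902.9 and 353.2 CPM in wild-type libraries. S100a8 and S100a9, which keratinocytes also express, dominate that sum. The receptors Clec4d (5.26 ± 0.76) and Trem1 (5.34 ± 0.81) and the histidine decarboxylase gene Hdc (3.29 ± 0.43) rose too. Clec4d was at 4.58, 5.05 and 3.72 CPM in knockout and 0.301 and 0 CPM in wild-type libraries, without overlap. Of 23 monocyte and macrophage markers 4 were higher and 4 lower, against 11.3% and 14.4% of all tested genes. Spp1 (5.07 ± 0.80), Arg1 (4.08 ± 0.80) and Cd14 (3.51 ± 0.52), all of which other cells of inflamed skin can express, rose, while the lipoprotein gene Apoe fell by 1.96 ± 0.36 on the log2 scale. Without any 1 library 1 or 2 of the 23 fell: 1 without wild-type replicate 2 or knockout replicate 3 and 2 without each of the others.

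Markers of dendritic and Langerhans cells fell in 9 of 17 and rose in 0, with a median of -2.48. Cd207, which encodes the Langerhans cell lectin langerin, had 0 counts in all knockout libraries and was at 6.32 and 6.14 CPM in wild-type libraries, at least 103-fold lower. H2-Aa, a chain of MHC class II, was at 4.58, 6.60 and 5.19 CPM against 41.2 and 40.0 CPM (-2.88 ± 0.40), and Ciita, the switch of class II genes, fell by 3.32 ± 0.39 on the log2 scale. The knockout libraries lay below the wild-type libraries in all 3. T and NK cell markers fell in 11 of 21 and rose in 2 (Cd5 and Trbc2), with a median of -2.50. Prf1, which encodes perforin, was at 0, 0 and 0.113 CPM against 4.61 and 4.16 CPM (-5.75 ± 0.67), and Cd3g fell by 5.33 ± 1.11 on the log2 scale. None of the 21 rose without either wild-type library, and 1 did without knockout replicate 2 or 3. With total-count scaling 0 rose and 18 fell.

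Skint genes, which keratinocytes express and which in mouse help select the gamma-delta T cells of the epidermis, fell in 9 of 10 tested members and rose in 0, with a median of -6.12. Skint5 had 0 counts in all knockout libraries, against 20.3 and 12.9 CPM in wild-type skin, at least 274-fold lower. Skint4 was at 1.27, 1.46 and 1.52 CPM against 77.6 and 39.9 CPM (-5.33 ± 0.56). Every knockout library lay below every wild-type library in all 10 members, and the call count of 9 held when any 1 of the 5 libraries was left out. Of all tested genes, 29.6% lay wholly below the wild-type libraries in the same way. The Skint copies are similar in sequence, so reads may be shared among them.

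Cell cycle genes rose in 16 of 50 and fell in 0, with a median of 1.10. Ccne1, which encodes cyclin E, a substrate of cullin-RING ligases as a protein, was at 9.42, 19.1 and 17.5 CPM in knockout and 1.61 and 3.07 CPM in wild-type libraries (2.70 ± 0.45). Rrm2, a ribonucleotide reductase subunit of S phase, rose by 2.74 ± 0.52 and the mitotic kinase gene Aurka by 2.13 ± 0.45. Mki67, at 19.6, 42.4 and 82.9 CPM against 25.2 and 39.9 CPM, overlapped between the groups and did not pass (0.58 ± 0.49, adjusted p = 0.41). Wild-type replicate 2, with its growing-hair genes, was on average the higher wild-type library for these genes, and 3 of 50 rose when wild-type replicate 1 was left out, against 17 when wild-type replicate 2 was and 10 without knockout replicate 3. With total-count scaling 5 of 50 rose, with a median of 0.66.

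Of 28 targets of p53 4 rose and 5 fell, near the shares of all tested genes (11.3% and 14.4%), with a median of -0.08. With total-count scaling 2 rose and 7 fell, with a median of -0.50, close to that of all genes under that scaling (-0.505). Cdkn1a, the cyclin-dependent kinase inhibitor p21, was at 187, 291 and 195 CPM in knockout and 173 and 195 CPM in wild-type libraries (0.29 ± 0.33, adjusted p = 0.55). Pmaip1 (2.62 ± 0.48) and Plk2 (2.06 ± 0.44) rose, and Trp53inp1 (-2.77 ± 0.34) and Sesn1 (-1.93 ± 0.35) fell. Without wild-type replicate 1, 2 of the 28 rose and 2 fell. Without wild-type replicate 2, 2 rose and 3 fell, and 2 fell without knockout replicate 1 and 3 without knockout replicate 3.

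Proteasome subunits rose in 15 of 32 and fell in 0, with a median of 0.99, and the knockout libraries lay above the wild-type libraries in 25 of the 32. Across all genes tested the knockout libraries lay wholly above the wild-type libraries in 24.2% and wholly below in 29.6%. Psmb5, a catalytic subunit, was at 142, 118 and 103 CPM in knockout and 47.0 and 47.9 CPM in wild-type libraries (1.35 ± 0.27). These differences were small, and 1 of 32 rose without wild-type replicate 1, 5 without wild-type replicate 2 and 3 with total-count scaling.

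Of 30 genes of the unfolded protein and integrated stress responses 13 rose and 2 fell, with a median of 1.12. Psat1, of serine synthesis, was at 360, 207 and 217 CPM against 60.2 and 50.9 CPM (2.23 ± 0.35), and the asparagine synthetase gene Asns rose by 2.09 ± 0.38. Atf4, Hspa5 and Trib3 rose and Atf3 and Chac1 fell. Leaving out wild-type replicate 1 left 5 genes that rose and leaving out wild-type replicate 2 left 8, and 1 fell without any library other than knockout replicate 2. With total-count scaling 8 rose and 4 fell.

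Genes of hypoxia and glycolysis rose in 15 of 30 and fell in 1, with a median of 1.53. Slc16a3, the lactate exporter MCT4, was at 163, 140 and 107 CPM in knockout and 11.9 and 11.6 CPM in wild-type libraries (3.53 ± 0.42), and 8 genes of the group rose without wild-type replicate 2 or with total-count scaling. For Slc16a3 the Cre-negative libraries, at 63.2, 69.8 and 37.7 CPM, stood between the other groups. Against Cre-negative skin its log2 fold change in knockout skin was 1.26 (adjusted p = 0.011 by the same test). Among 21 genes of necroptosis, pyroptosis and apoptosis 4 rose and 0 fell. Ripk3 was at 5.35, 6.99 and 6.23 CPM against 0.502 and 0.941 CPM (3.04 ± 0.50), and Mlkl, the executor of necroptosis downstream of it, rose by 3.15 ± 0.62. The call of Gsdmc (3.59 ± 0.87) was lost without wild-type replicate 2, where its log2 fold change was 3.01. Gsdmc was at 279, 47.6 and 207 CPM in knockout and 21.9 and 7.72 CPM in wild-type libraries. The Cre-negative libraries, at 57.1, 61.7 and 228 CPM, overlapped with the knockout libraries. Against Cre-negative skin Gsdmc did not pass (0.62, adjusted p = 0.51 by the same test).

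Sebaceous gland genes fell in 17 of 26 and rose in 1 (Fads2b), with a median of -2.80. Far2, a fatty acyl reductase of wax synthesis, was at 0, 0.0971 and 0 CPM in knockout and 220 and 82.8 CPM in wild-type libraries (-12.32 ± 0.80). It had 1 count over the knockout libraries, so its fold change and SE are uncertain. Scd1, a fatty acid desaturase, was at 47.9, 41.5 and 50.6 CPM against 1330 and 671 CPM (-4.42 ± 0.40), and the melanocortin receptor gene Mc5r fell by 6.49 ± 0.59 on the log2 scale. No knockout library reached a wild-type library in these genes, and 16 or 17 members fell when any 1 of the 5 libraries was left out.

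Stem cell and duct genes of the hair follicle fell in 11 of 23 and rose in 1 (Plet1), with a median of -1.19. Lgr5, a marker of follicle stem cells, was at 0.255, 0.388 and 0.479 CPM in knockout and 5.62 and 15.7 CPM in wild-type libraries (-4.67 ± 0.64), and the upper-follicle keratin Krt79 fell by 3.84 ± 0.46 on the log2 scale. Without wild-type replicate 2, 8 of the 23 fell and 0 rose, with a median of -1.09, and the log2 fold change of Lgr5 was -3.74. Genes of the growing hair shaft and inner root sheath fell in 26 of 28, but 6 fell and 1 rose without wild-type replicate 2, where the median moved from -9.54 to -1.96. Krt25, an inner root sheath keratin, was at 0, 0.0971 and 0.0564 CPM in knockout, 24.4 CPM in wild-type replicate 1 and 1964 CPM in wild-type replicate 2. The Cre-negative libraries, at 29.1, 3.45 and 0 CPM, spanned the range from the knockout level to that of wild-type replicate 1. Gata3, also a gene of the interfollicular epidermis, fell by 2.17 ± 0.31 on the log2 scale with nearly equal levels in the wild-type libraries.

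Genes of tissues below the epidermis differed too. Adipocyte genes fell in 16 of 17 and rose in 0, with a median of -2.99 and summed levels of 691.3, 582.6 and 441.3 CPM in knockout against 4169 and 4680 CPM in wild-type libraries. Plin1, which coats lipid droplets, fell by 4.32 ± 0.50 on the log2 scale and Adipoq, for adiponectin, by 3.55 ± 0.49. Skeletal muscle genes fell in 13 of 22 and rose in 0 (median -1.61), with summed levels of 3048 to 5024 CPM against 13650 and 18064 CPM. Myh4, a fast myosin, was at 151, 303 and 313 CPM in knockout and 3255 and 2420 CPM in wild-type libraries (-3.47 ± 0.62). Between 5 and 7 muscle genes fell without wild-type replicate 1 or 2 or knockout replicate 1 or 3. The share of each tissue in a sample, its site and its depth are not recorded, so their part in these differences was not tested.

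Fibroblast and dermal matrix genes had a median of -0.08, with 3 of 26 higher and 2 lower. None rose without wild-type replicate 1 or knockout replicate 2, and 1 did without wild-type replicate 2 or knockout replicate 3. With total-count scaling 0 rose and 5 fell, with a median of -0.66. Dpt, for dermatopontin, was at 28.5, 24.3 and 19.8 CPM in knockout and 94.5 and 107 CPM in wild-type libraries (-2.06 ± 0.36). Endothelial markers rose in 9 of 20 and fell in 0, with a median of 0.86, and in 2 of 20 without either wild-type library and 5 without knockout replicate 2. Esam, a junction protein, was at 35.4, 42.4 and 21.4 CPM against 10.3 and 10.5 CPM (1.66 ± 0.34). The call of Selp (3.73 ± 0.81), for P-selectin, was lost without wild-type replicate 2 (3.33, adjusted p = 0.065), and that of Pecam1 (1.86 ± 0.44) without wild-type replicate 1 (1.73, 0.072).

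HOX genes, whose pattern differs between body sites, fell in 9 of 24 and rose in 0, with a median of -1.10. Hoxc8 was at 10.2, 13.6 and 17.7 CPM in knockout and 49.5 and 45.6 CPM in wild-type libraries. The Cre-negative libraries, at 18.7, 27.7 and 21.1 CPM, stood between the others in Hoxc8, as they also did in Hoxd4. In Hoxa7 and Hoxb3 they overlapped with the wild-type libraries. The median of the 24 genes was -0.13 for Cre-negative against wild-type skin. Without wild-type replicate 2, 4 HOX genes fell, and 5 without knockout replicate 3. Of 5 tested cartilage genes 3 fell and, without wild-type replicate 2, 1. Melanocyte genes fell in 6 of 11, in 0 without wild-type replicate 2, in 10 without wild-type replicate 1 and in 2 without knockout replicate 2. Against Cre-negative skin the same genes had a median of 1.66, with 3 that rose and 1 that fell. Mlana, of melanosomes, was at 4.08, 3.20 and 3.33 CPM in knockout, 3.81 and 53.7 CPM in wild-type and 1.06, 0.547 and 0.437 CPM in Cre-negative libraries, a log2 fold change of -3.05 against wild-type (adjusted p = 0.014) and 2.32 against Cre-negative skin (0.043). Schwann cell genes fell in 2 of 9, in fewer without wild-type replicate 2, in 1 without knockout replicate 2 and in 4 with total-count scaling. B and mast cell genes fell in 3 of 9, and fewer of the 9 fell without wild-type replicate 1. Without that library the log2 fold change was -1.89 for Igkc and -1.02 for Jchain, against -6.38 and -5.28 with it.

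Genes of simple and mucosal epithelia rose in 6 of 13 tested and fell in 3. Krt76, a keratin of the palate, was at 24.2, 12.8 and 10.1 CPM in knockout and 0 and 0.0495 CPM in wild-type libraries (8.57 ± 1.14). Gcnt3, a mucin glycosyltransferase, was at 10.2, 21.1 and 8.88 CPM with 0 counts in wild-type skin, at least 134-fold higher. The median of 1.38 turned to -0.42 without knockout replicate 1, 3 genes rose without wild-type replicate 1, and 1 fell without any library other than knockout replicate 1. Among epidermal transcription factors 1 of 31 rose, Fosl1 (2.83 ± 0.45), and 5 fell, of which Foxq1 (-2.17 ± 0.46) was the one with the smallest p. Leaving out wild-type replicate 1 or knockout replicate 1 left 1 that fell, wild-type replicate 2 left 2, and knockout replicate 2 or 3 left 3, while 3 rose without knockout replicate 1.

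The 10 highest fitted fold changes among called genes without overlap and with at least 5 CPM in the higher group were those of Sprr2k, Dynap, Gcnt3, Fgf3, Lce3b, Ces1h, Slpi, Il24, Spink7 and Glyat. Sprr2k, Dynap, Gcnt3, Ces1h and Spink7 had 0 counts in wild-type skin, so their fitted values are no bound and their place in this order is uncertain. Fgf3, Lce3b and Il24 had 1 count each over the wild-type libraries and Glyat had 3. Their fold changes, SE and places are uncertain too. The bound for Spink7 is at least 56.8-fold higher, below the measured change of genes outside the 10 such as Krt6b (8.62 on the log2 scale). Fgf3, a fibroblast growth factor, was at 125, 17.8 and 54.3 CPM in knockout and 0.10 and 0 CPM in wild-type libraries (10.58 ± 1.51). The carboxylesterase gene Ces1h, at 14.8, 14.8 and 6.79 CPM, had 0 counts in wild-type skin and was at least 122-fold higher. Of the 10 lowest, Krtap19-9b, Krt25, Krtap15, Krtap3-3, Krt35, Krt26 and Krtap2-4 are hair genes that were highest in wild-type replicate 2, and without that library the calls of Krtap19-9b, Krtap15, Krtap2-4, Krtap3-3 and Krt26 were lost, those of Krt26 and Krtap2-4 also without knockout replicate 3. The other 3, Cyp2g1, Far2 and Serpina3j, were higher in wild-type replicate 1. Serpina3j had 0 counts in knockout skin and was at 62.5 and 17.8 CPM in wild-type libraries, at least 665-fold lower.

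Against the Cre-negative group, which shares the knockout libraries with the comparison above, 4752 genes passed (29.6%), of which 2243 rose (14%) and 2509 fell (15.7%). Replicates 1 and 2 of the Cre-negative group were male; 979 genes passed with the female library alone, 3123 without replicate 2 and 3148 without replicate 1. Medians of the gene groups against wild-type and against Cre-negative skin were 2.09 and 2.20 for NRF2 targets, 7.52 and 5.92 for wound keratins, -2.80 and -2.22 for sebaceous genes and -6.12 and -6.67 for Skint genes. They were -9.54 and -3.30 for growing hair, -2.99 and -1.43 for adipocyte genes and 1.53 and 0.60 for hypoxia and glycolysis. The sign differed for melanocyte genes (-2.06 and 1.66), monocyte and macrophage markers (0.81 and -0.50), B and mast cell markers (-0.84 and 0.36) and NF-kB feedback (0.12 and -0.10). Sprr1b, at 7.52 and 12.1 CPM in wild-type skin, was at 50.7, 98.6 and 73.9 CPM in Cre-negative and 1886, 1807 and 2372 CPM in knockout libraries. Egln3, an oxygen sensor of the HIF pathway, was at 25.7 and 20.3 CPM in wild-type, 69.4, 119 and 97.1 CPM in Cre-negative and 141, 82.7 and 130 CPM in knockout libraries. In Sprr1b the Cre-negative libraries stood between the other groups, and in Egln3 they overlapped with the knockout. Neither gene passed between Cre-negative and wild-type skin after adjustment.

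Among 12 tested genes known to differ between mouse strains 2 rose and 4 fell in knockout skin, and without wild-type replicate 1, 0 rose and 2 fell. Without wild-type replicate 2 or knockout replicate 1, 1 rose. Wdfy1 (ENSMUSG00000073643.12, chr1:79679979-79739486, GRCm39) was at 1.78, 3.01 and 2.79 CPM in knockout, 34.2 and 34.0 CPM in wild-type and 3.02, 3.45 and 4.30 CPM in Cre-negative libraries. Both floxed groups were thus low and the wild-type group high, with log2 fold changes of -3.70 ± 0.50 for knockout and -3.25 for Cre-negative against wild-type skin. The first passed (adjusted p = 2.3e-04) and the second did not after adjustment.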

How the data were processed

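Libraries were made from skin RNA with a forward QuantSeq kit, which reads a tag near the 3′ end of polyadenylated transcripts, per the labels' protocols. The authors deposited 1 table of whole-number read counts for 56953 genes in 14 libraries. A further column, in another unit per the file headers (exon length in bases), was left aside. STAR, featureCounts, DESeq2, GRCm38 and GRCm39 appear in the submitters' processing notes, and the table's exon positions fit GRCm39. Strand and multiple mapping settings are not given in the sources used, so paralogs, overlapping and antisense genes are uncertain.

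Genes kept by filterByExpr (16027) were scaled by TMM and tested with the quasi-likelihood test of edgeR 4.0.16 in R 4.3.3, fitting all 14 libraries with 1 coefficient per group (6 groups), so that groups of 2 and 3 libraries share 1 estimate of the spread. Adjusted p-values (Benjamini-Hochberg) cover every gene tested, with 0.05 as the threshold. Fold changes are log2. Their SE is the absolute fold change over the square root of the test's F statistic and not a fitted standard error. It is uncertain for genes near 0 counts in a group. Levels are TMM-scaled CPM, whose precision follows the total counts. Where a group had 0 counts, the bound takes 3 counts in the whole group as the floor, for counting error only. Principal components used log2 CPM with a prior count of 2.

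The comparison, the 37 gene lists and the rules were chosen with earlier results of these data known. Lists are described by counts and medians, without a test. The text names the 10 called genes with the highest and the 10 with the lowest fold change (no overlap, at least 5 CPM in the higher group, no predicted genes), up to 4 genes per list ranked by p, and a fixed set of skin genes. Genes named outside that rule were chosen after their values were seen. Nnt, of the fixed set, was not tested because of low counts. Alternatives used DESeq2 1.42.0 and limma 3.58.1, other scalings, filters and models, and left-out libraries. The procedure was tested on simulated data. The median log2 fold change of all genes was -0.058, and -0.505 with total-count scaling.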

Additional observations from a re-analysis of the deposited data

How the results depend on the processing

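The count of genes past the threshold between knockout and wild-type skin was 4107. It was 4742 with DESeq2, 5478 with limma voom, 4207 with total-count scaling and 2832 in a fit to those 2 groups alone, with 0 calls in the opposite direction under any setting. Total-count scaling changed the split, with 20% of calls higher in knockout skin against 43.9%. Without 1 library at a time the count ranged from 2054 to 3687, lowest without wild-type replicate 1 (2054) and wild-type replicate 2 (2093). Without both knockout replicate 1 and wild-type replicate 2, a choice made after seeing the data, it was 2033. Where 1 library is left in a group, it is assumed to vary like the libraries of the other groups.

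Cre-negative against wild-type skin gave 0 calls. DESeq2 gave 144, limma voom 195, the test without a low-count filter 446, a fit to those 2 groups alone 18 and a fit to the 8 DMSO libraries 1. Leaving out 1 library gave 0 to 188 calls, with 188 without wild-type replicate 1 and 5 without Cre-negative replicate 3. Knockout against Cre-negative skin gave 4752 calls, 7297 with limma voom, 3123 to 4294 without 1 library (3123 without Cre-negative replicate 2 and 3148 without Cre-negative replicate 1) and 979 with the female Cre-negative library alone, a choice made after seeing the data.

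A replicate block gave 3488 calls between knockout and wild-type skin, 4692 against Cre-negative skin and 3 between Cre-negative and wild-type skin. Deviations of same-numbered knockout and wild-type libraries correlated at 0.0643 and 0.0251. Deviations within a group of 2 libraries mirror each other, so this check cannot decide whether same-numbered libraries share a batch. The labels give only a replicate number, and no pairing was assumed.

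Of 172 named genes past the threshold, 126 lost their call in no setting that gave them a value. No fit without 1 library lost the call of 132. Cd3g, Cyp2g1 and S100a8, counted among the 126, did not have a value in every setting. The log2 fold change of Nedd8 was between -0.64 and 0.17 without 1 library. The Nedd8 difference of -10.25 CPM ranged from -84.45 to 29.58 without 1 library, and was positive without knockout replicate 2 (24.13 CPM, log2 fold change 0.14), knockout replicate 3 (29.58 CPM, 0.17) or wild-type replicate 2 (22.82 CPM, 0.14). Total-count scaling reversed the log2 fold changes of Cdkn1a (-0.16), Nae1 (-0.23) and Rbx1 (-0.40), none of which passed. Without 1 library Rbx1 ranged from -0.0018 (without wild-type replicate 1) to 0.16, Flg from -2.05 to 0.69 (without wild-type replicate 1), and Mki67 from -0.060 (without knockout replicate 3) to 0.96.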

Other observations

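Some gene families outside the groups above also differed between knockout and wild-type skin. They were chosen after their values were seen, so their counts are descriptions. Of 19 tested circadian clock genes 11 fell and 1 rose (Cry1), with a median log2 fold change of -1.52. Hlf, a clock output factor, was at 2.29, 5.92 and 7.13 CPM in knockout and 131 and 67.4 CPM in wild-type libraries (-4.20 ± 0.45), and Dbp was at 3.06, 0.971 and 2.14 CPM against 34.4 and 22.6 CPM (-3.86 ± 0.48). Nr1d1, a repressor of the core loop, fell by 2.03 ± 0.43 on the log2 scale, while the activators Clock (0.50 ± 0.35, adjusted p = 0.32) and Arntl (-0.22 ± 0.35, 0.67) did not pass. The Cre-negative libraries, at 79.7, 114 and 107 CPM for Hlf, lay in the wild-type range. The hour at which skin was taken is not labelled, and its part in these values was not tested.

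Kallikreins, proteases that loosen corneocytes, rose in 9 of 11 and fell in 1 (Klk5, -1.14 ± 0.29), with a median of 2.95. Klk6 was at 984, 317 and 507 CPM in knockout and 13.5 and 10.4 CPM in wild-type libraries (5.66 ± 0.56). Cysteine protease inhibitors of the stefin A cluster rose in 10 of 10 tested genes, with a median of 5.10; Csta3 was at 163, 331 and 228 CPM against 1.40 and 0.693 CPM (7.90 ± 1.20), although reads may be shared among these similar copies. Of 8 connexins 3 rose and 1 fell. Gjb6 was at 1208, 545 and 602 CPM in knockout and 7.72 and 53.5 CPM in wild-type libraries (4.67 ± 0.78), and Gjb5 fell by 2.26 ± 0.44 on the log2 scale. For Gjb6 wild-type replicate 2, the library with growing-hair genes, was the higher of the wild-type pair.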
